A study of Ovis aries with 18 samples.

Results

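miR-150 is 1 of the 364 miRNA features counted in the plasma of Polish Longwool ewes, and is described here across 18 libraries by diet and week. It was chosen by its name, as the row oar-miR-150 of the raw counts, with earlier results of these data known. Ewes of the OBESE group received a high-fat diet and ewes of the CTRL group a standard diet, with 6 ewes assigned to each. All 12 were ovariectomized and carried estradiol implants. Blood was drawn at weeks 7, 10 and 14, which gave 3 libraries of each diet at each week. Whether single ewes or pools stand behind the libraries is not in the labels, so p-values measure the spread between these libraries, and ewes may recur in their diet group from week to week.

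miR-150 is made at high levels in mature B and T lymphocytes and in natural killer cells. In mice it represses MYB, a transcription factor that developing lymphocytes need, and its level rises as these cells mature. In plasma, miRNAs travel in vesicles and bound to proteins, and blood cells are a major source of them. In RefSeq's table for the assembly ARS-UI_Ramb_v3.0, the sheep gene MIR150 overlaps 0 protein-coding genes, with 0 other miRNA genes within 10000 bases. Of the 10 miRNAs listed for lymphocytes, the named features analysed here include miR-150 and miR-29a, so the lymphocyte label rests on what is known of miR-150. It could be set beside 1 other listed miRNA only, miR-29a, whose correlation with it, given below, did not pass.

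Libraries held between 388574 and 1269829 counts. Scaling factors from TMM, which sets libraries to a common level by their shared miRNAs, ran from 0.653 to 1.19. CTRL week 7 replicate 1 and CTRL week 14 replicate 3 had the lowest factors, 0.653 and 0.718, with 53.9% and 55.1% of their counts in miR-16b, the most abundant miRNA. Levels are given as CPM, the counts scaled to a total of 1e+06 per library after TMM, and differences between groups as log2 fold changes of these levels.

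miR-150 was an abundant plasma miRNA, averaging 7018 ± 6002 CPM (SD, n = 18). It ranked 12 of the 168 miRNAs with enough counts to be tested and 7 of the 54 named ones. On this scale, which makes no correction for length, the named miRNAs next above it were miR-30d at 10119 ± 2581 and let-7a at 26758 ± 3095 CPM, and those next below were let-7f at 6432 ± 933 and let-7i at 4778 ± 534 CPM (SD, n = 18 each). Its share of the counts ran from 0.175% to 2.71%, and its rank within a library from 8 to 23 of 364. Its count ran from 1155 to 31742, so that counting error alone was between 0.561% and 2.94% of a value. Molecular identifiers were part of the library kit, but the files do not tell counted molecules from counted reads, and this error covers counting only.

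In OBESE plasma at week 7, miR-150 stood at 5560, 6724 and 8300 CPM in replicates 1 to 3. At week 10 the OBESE libraries had 9374, 26790 and 8654 CPM, and at week 14 they had 2816, 3180 and 3447 CPM. No OBESE library of one week overlapped those of another: all 3 were highest at week 10 and lowest at week 14, and 1 library of week 10 stood far above the rest. How many of the 168 tested miRNAs separate all 3 weeks in this way was not computed. Shares for pairs of weeks are given below. In CTRL plasma at week 7, miR-150 stood at 2677, 2364 and 12157 CPM in replicates 1 to 3. At week 10 the CTRL libraries had 3658, 12949 and 8512 CPM, and at week 14 they had 2530, 4028 and 2604 CPM. The CTRL weeks overlapped: 1 library of week 7 lay above 2 of week 10, and 1 of week 10 lay below the highest of week 14. In plasma, fewer cells of a type and less RNA per cell cannot be told apart, and the levels are not a measure of lymphocyte numbers.

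**Figure D1:**
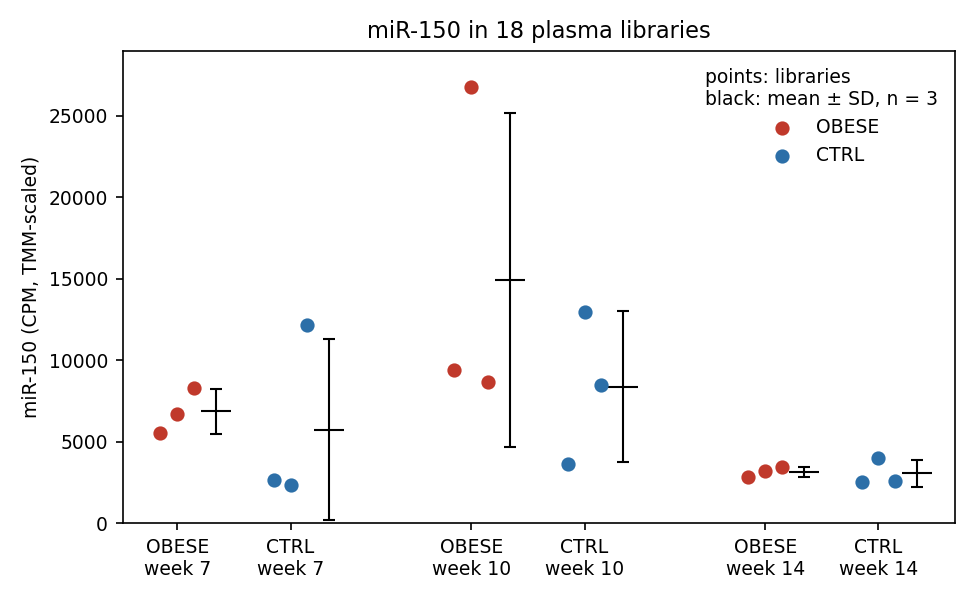
miR-150 in each of the 18 libraries (points, CPM scaled by TMM) by week and diet, with the mean and SD of the 3 libraries of each group in black. All 6 libraries of week 14 lie between 2530 and 4028 CPM, while those of week 10 spread from 3658 to 26790 CPM.

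By group mean, the order from high to low was OBESE week 10 (14939 ± 10269 CPM), CTRL week 10 (8373 ± 4647), OBESE week 7 (6861 ± 1375), CTRL week 7 (5732 ± 5566), OBESE week 14 (3148 ± 317) and CTRL week 14 (3054 ± 844 CPM; SD, n = 3 each). Every neighbouring pair in this order differed by less than the larger of its 2 SDs, and all 5 pairs overlapped. The order of the weeks, 10 above 7 above 14, was the same in both diets.

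The question of the study was whether plasma miRNAs differ between the diets, and for miR-150 no comparison of diets passed a test. Over the 3 weeks its mean level was 8316 ± 7357 CPM with the OBESE diet and 5720 ± 4316 CPM with the CTRL diet (SD, n = 9 each). The fitted log2 fold change, averaged over weeks, was 0.38 (SE 0.322, 95% interval -0.30 to 1.06, edgeR adjusted p = 0.573). In an exact permutation test that exchanged diet labels within weeks, the difference of mean log2 CPM was 0.52 (two-sided exact p = 0.157, adjusted p = 0.533 over 4 diet tests). This value rests much on 2 libraries. Without CTRL week 7 replicate 3 the log2 fold change was 0.77 (SE 0.253, edgeR adjusted p = 0.146) and the exact permutation p was 0.0295, and without OBESE week 10 replicate 2 they were 0.12 (SE 0.303, adjusted p = 0.87) and 0.312. The fit and the exact test treat the 9 libraries of a diet as independent. Ewes may recur in them from week to week, so these p-values may be too small.

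Week by week, the fitted diet difference was smallest at week 14. There miR-150 averaged 3148 ± 317 CPM with the OBESE diet and 3054 ± 844 CPM with the CTRL diet, and the log2 fold change was 0.04 (SE 0.557, 95% interval -1.13 to 1.22). The interval allows a difference of up to 2.33-fold, so the diets are not shown to be alike. At week 10 OBESE libraries averaged 14939 ± 10269 CPM and CTRL libraries 8373 ± 4647 CPM. The log2 fold change was 0.84 (edgeR SE 0.56, adjusted p = 0.722), and it was 0.14 without OBESE week 10 replicate 2. At week 7 OBESE libraries averaged 6861 ± 1375 CPM and CTRL libraries 5732 ± 5566 CPM, with a fold change on the log2 scale of 0.26 (edgeR SE 0.557, adjusted p = 0.929). Without CTRL week 7 replicate 3 that became 1.45 (SE 0.489, adjusted p = 0.34), and without either of the other two CTRL libraries of the week it was negative. The groups of all 3 weeks overlapped. The smallest exact permutation p within a week was 0.4, where 3 libraries against 3 cannot go below 0.1.

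Levels were also compared between weeks within each diet. In OBESE plasma miR-150 averaged 14939 CPM at week 10 and 6861 CPM at week 7, which the edgeR fit put at a log2 fold change of 1.12 (SE 0.563, adjusted p = 0.897). It averaged 3148 CPM at week 14 and 6861 CPM at week 7, a log2 fold change of -1.12 (SE 0.563, adjusted p = 0.652). Neither pair of weeks overlapped, as was the case for 6.55% of the 168 miRNAs in the upward direction at week 10 and for 8.33% in the downward direction at week 14. In CTRL plasma the log2 fold changes had the same signs, 0.55 (SE 0.558, edgeR adjusted p = 0.947) at week 10 and -0.91 (SE 0.561, adjusted p = 0.977) at week 14. Single libraries moved 3 of these 4 values by over 1.5 times. The OBESE value at week 10 was 0.48 without OBESE week 10 replicate 2. The CTRL value at week 10 ran from 0.06 without CTRL week 10 replicate 2 to 1.74 without CTRL week 7 replicate 3, and was 0.26 and 0.18 without CTRL week 7 replicates 1 and 2 and 0.88 without CTRL week 10 replicate 1. The CTRL value at week 14 was 0.28 (SE 0.469) without CTRL week 7 replicate 3.

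Whether the course over the weeks differed between diets was tested as an interaction. The diet difference at week 10 exceeded that at week 7 by 0.58 on the log2 scale (SE 0.787, edgeR adjusted p = 0.981). The diet difference at week 14 less that at week 7 was -0.22 (SE 0.787, adjusted p = 0.987). Neither passed, and both changed sign when single libraries were left out. The first turned negative without OBESE week 10 replicate 2 (-0.06) or CTRL week 7 replicate 3 (-0.61). The other turned positive without CTRL week 7 replicate 1 (0.0847), CTRL week 7 replicate 2 (0.16) or CTRL week 14 replicate 2 (0.0444), and was -1.42 without CTRL week 7 replicate 3. For the 10 comparisons above, edgeR called 0% of the 168 miRNAs, with between 3 and 19 at an unadjusted p under 0.05. limma-voom called 0 (3 to 20 unadjusted), and DESeq2 called 2 for the diets averaged over weeks and 0 in the other 9 (5 to 27 unadjusted), miR-150 not among them. Here and below, DESeq2 was run on all 364 features without the filter, so its counts are not out of the 168.

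The step between weeks 10 and 14 was compared after these values had been seen, so its tests describe a pattern that was already visible. Over both diets, miR-150 averaged 3101 ± 572 CPM at week 14 and 11656 ± 7985 CPM at week 10 (SD, n = 6 each). The fitted log2 fold change was -1.85 (SE 0.406, 95% interval -2.71 to -0.99, edgeR adjusted p = 0.0316), and its p was the smallest of the 168 miRNAs. edgeR called 2.38% of the 168 for this step, 4 miRNAs, and limma-voom called 4 of the 168, miR-150 among them (limma-voom adjusted p = 0.0255). DESeq2, run on all 364 features, called 4, miR-150 among them (DESeq2 adjusted p = 0.000611). The exact permutation test, which exchanged weeks within diets, gave a difference of -1.68 in mean log2 CPM (two-sided exact p = 0.01, adjusted p = 0.09 over the 9 week tests of this kind). Its p cannot go below 0.005. Those of the 9 that use 1 diet alone cannot go below 0.1, so they could not pass and only add to the adjustment. In OBESE plasma alone the log2 fold change was -2.25 (SE 0.582, edgeR adjusted p = 0.104, DESeq2 adjusted p = 0.0118), with no overlap of the weeks, as for 8.33% of the 168 in this direction. In CTRL plasma alone it was -1.46 (SE 0.568, edgeR adjusted p = 0.848), with overlap. Within either diet alone edgeR called 0% of the 168 for this step, with 17 in OBESE and 5 in CTRL at an unadjusted p under 0.05 (DESeq2 2 and 0 called, limma-voom 0 and 0). Over all 168 miRNAs, libraries of these weeks with the same diet and replicate number deviated together from their group means (r of 0.36 to 0.69 in 6 pairs). For miR-150 alone, the replicates kept their order between these weeks in CTRL plasma and not in OBESE plasma. With the replicate number as a block shared by both diets, the OBESE step was called (-2.16, SE 0.496, edgeR adjusted p = 0.0391, 2 of the 168 called). With a separate block for each number within a diet it was not (-2.11, edgeR adjusted p = 0.0543, 0 called), while the step over both diets was called in both fits (adjusted p = 0.0149 and 0.0154, with 6 and 7 of the 168 called).

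In the edgeR fit without a replicate block, the size of this step held when libraries were left out and its call did not. The fits with a block were not repeated without single libraries. Without 1 library the log2 fold change over both diets lay between -2.06 and -1.48, and the edgeR adjusted p rose above 0.05 in 8 of 18 such fits, namely without CTRL week 10 replicate 2 or 3, OBESE week 10 replicate 2, CTRL week 14 replicate 1 or 3, or any of the 3 OBESE libraries of week 14 (0.0588 to 0.102). Library totals were between 488427 and 977732 at week 14 and between 388574 and 1269829 at week 10, and their part in the step was not tested. For every 100 counts of miR-16b, miR-150 had 1.34 to 1.76 counts in OBESE libraries of week 7. It had 2.08 to 6.03 in those of week 10 and 0.675 to 0.735 in those of week 14. In CTRL libraries it had 0.324 to 2.82 at week 7, 0.873 to 2.51 at week 10 and 0.339 to 0.879 at week 14. By this ratio, the OBESE weeks did not overlap and the CTRL weeks did. miR-16b held 42.7% to 55.1% of the counts of a library, so the ratio stays close to a share of the total. It uses the same miR-150 counts and is no separate support, and the share of all miRNAs without overlap on it is not given here.

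Averaged over both diets, week 10 against week 7 gave 0.83 on the log2 scale (SE 0.396, edgeR adjusted p = 0.965), and week 14 against week 7 gave -1.02 (SE 0.398, adjusted p = 0.688). These were also compared after the values were seen, and edgeR called 0% of the 168 in each, with 4 and 8 at an unadjusted p under 0.05 (DESeq2 0 called with 5 and 12, limma-voom 0 called with 4 and 7).

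**Figure D2:**
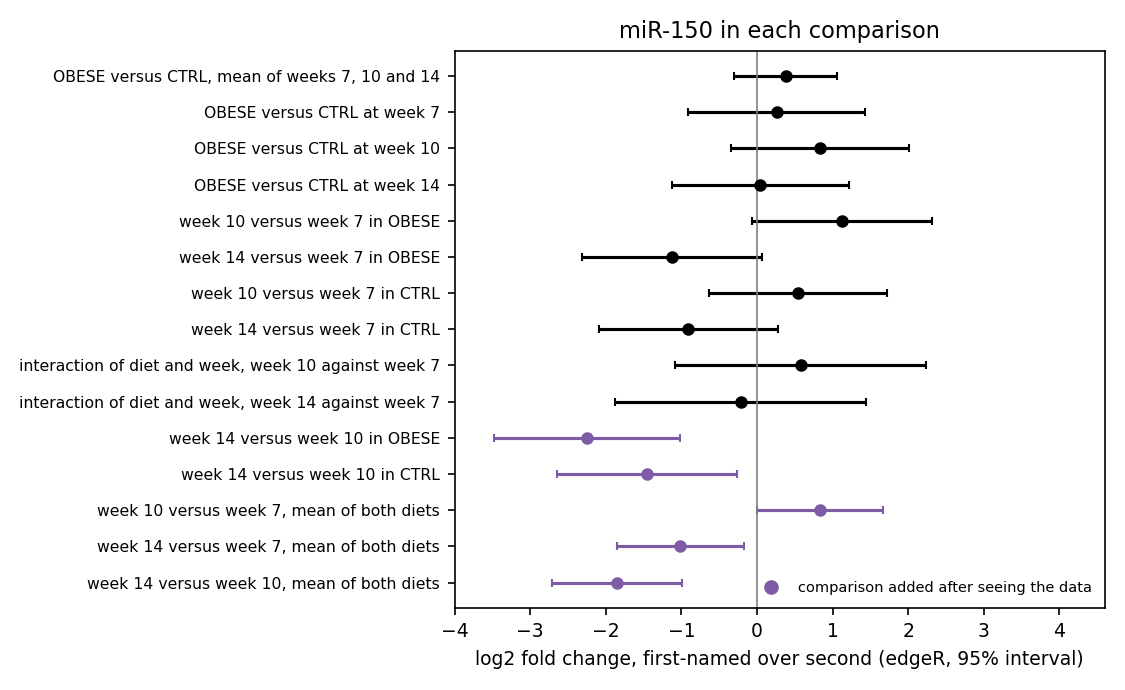
Log2 fold change of miR-150 with its 95% interval in each comparison, from the edgeR fit to 18 libraries, where a positive value is higher in the first-named group. The 4 diet comparisons and the interactions cross 0, and the step from week 10 to week 14 over both diets lies at -1.85 (-2.71 to -0.99).

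Pooled over groups, libraries of the same diet and week differed more in miR-150 than in other abundant plasma miRNAs, but not in every group. Its pooled SD within groups was 0.78 on the log2 scale, against a median of 0.29 over the 20 most abundant miRNAs and of 0.47 over all 168. Among those 20 it had the largest SD and the largest range, 11.3-fold between the lowest and the highest library. The next in SD, unnamed miRNA 1, had 0.59, and the next in level, let-7f, ranged 1.65-fold. Unnamed miRNAs are features known here only by their running number. Over all 168 miRNAs it ranked 43 in SD, and every miRNA with a larger SD was less abundant.

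The spread was not the same in every group, though no test of this was made. At week 7 the SD of log2 CPM was 0.29 in OBESE and 1.31 in CTRL libraries, against medians of 0.34 and 0.48 over all 168 miRNAs and of 0.22 and 0.29 over the 20 most abundant. The CTRL libraries of that week are those where replicate 3 stood at 12157 CPM and the other two at 2677 and 2364 CPM. At week 10 it was 0.91 in OBESE and 0.93 in CTRL libraries, against 0.41 and 0.39 over all 168 and 0.21 and 0.23 over the 20. At week 14 it was 0.15 in OBESE and 0.38 in CTRL libraries, against 0.41 and 0.44 over all 168 and 0.17 and 0.24 over the 20. So miR-150 lay under the median of all 168 in 3 of 6 groups (OBESE weeks 7 and 14 and CTRL week 14), and under that of the 20 in OBESE week 14. As a share of the mean, the spread was 20% in OBESE and 97.1% in CTRL at week 7, 68.7% and 55.5% at week 10, and 10.1% and 27.6% at week 14. Counting error was at most 2.94% in any library.

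**Figure D3:**
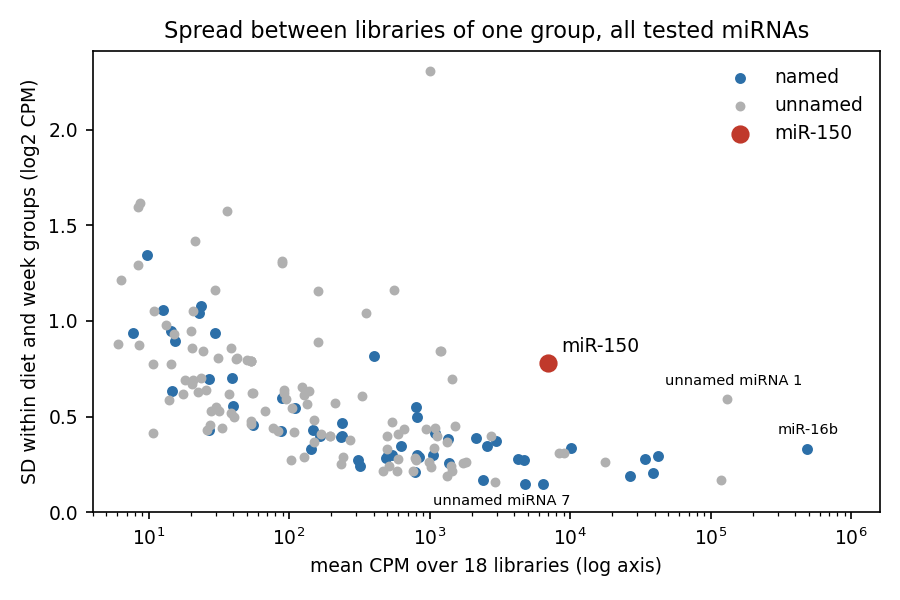
Spread of each of 168 miRNAs between libraries of the same diet and week (SD of log2 CPM) against its mean CPM on a log axis. miR-150 (red) lies at 0.78, above the other miRNAs of its abundance, where let-7f has 0.15.

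Which miRNAs moved with miR-150 was described by the Pearson correlation of log2 CPM across the 18 libraries, for the other 167 miRNAs. Both values of a library share its scaling, and libraries may share ewes, so the permutation p-values may be too small. Of the 167, 8 passed an adjusted permutation p of 0.05, 7 with a positive and 1 with a negative correlation, against a median r of -0.10 over all 167. miR-23a was the 1 named miRNA among them, and the other 7 were unnamed.

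miR-23a, a miRNA of the miR-23a/27a/24 cluster that is expressed in myeloid cells and many tissues, had r = 0.79 (Spearman rho = 0.76, permutation p = 9e-05, adjusted p = 0.00301 over 167). Its mean at week 7 was 879 ± 185 CPM with the OBESE diet and 731 ± 211 CPM with the CTRL diet. At week 10 its mean was 1074 ± 223 CPM with the OBESE diet and 896 ± 120 CPM with the CTRL diet, and at week 14 it was 648 ± 146 and 653 ± 89.2 CPM (SD, n = 3 each). Like miR-150 it had its highest mean at week 10 and its lowest at week 14 in both diets, but over 2.61-fold in all libraries. Its r was 0.69 without the 2 libraries farthest from the miR-150 median, which were replicate 2 of OBESE week 10 and of CTRL week 10, and 0.53 after the mean of each diet and week was taken off. Within single weeks (n = 6) it was 0.65 at week 7, 0.91 at week 10 and -0.47 at week 14. Its neighbour in the cluster, miR-27a, had r = 0.06, and 0.33 after the mean of each diet and week was taken off.

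The next named miRNAs did not pass. They were miR-191, abundant in platelets, at r = 0.64 (adjusted permutation p = 0.0653), let-7b at 0.53 (0.167), miR-30d at 0.50 (0.206) and miR-29a, raised in mature lymphocytes, at 0.45 (0.293). The r of miR-191 was 0.36 without the 2 farthest libraries and 0.74 when libraries were scaled by their totals alone (adjusted permutation p = 0.0127), so that it depends on both. At the other end stood miR-107 at r = -0.56 and miR-103 at -0.56 (adjusted permutation p = 0.162 each), a pair that lowers insulin sensitivity in mice, and miR-106b, of a cluster related to miR-17/92, at -0.52 (0.175).

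The closest of all were 3 unnamed miRNAs. Unnamed miRNA 12 had r = 0.90 (rho = 0.82), unnamed miRNA 7 had 0.89 (rho = 0.89) and unnamed miRNA 13 had 0.85 (rho = 0.80). Their adjusted permutation p was 0.000835, 0.000835 and 0.00111, where 1e-05 was the smallest unadjusted p the 100000 permutations could give. Each held within OBESE libraries (0.94, 0.81 and 0.88, n = 9), within CTRL libraries (0.87, 0.95 and 0.91, n = 9), without the 2 farthest libraries (0.83, 0.83 and 0.74) and after group means were taken off (0.79, 0.88 and 0.74). Within week 14 alone (n = 6), where miR-150 ranged 1.59-fold, r was 0.52, 0.71 and -0.39, so the relation of unnamed miRNA 13 did not hold there.

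These partners moved over a much smaller range than miR-150. Unnamed miRNA 7 ran from 2466 to 3817 CPM, 1.55-fold, while miR-150 ran 11.3-fold, and the fitted slope was 0.16 log2 units for each log2 unit of miR-150. Unnamed miRNA 12 ran from 616 to 1654 CPM with a slope of 0.32, and unnamed miRNA 13 from 517 to 2528 CPM with a slope of 0.45. Set against miR-150 in the same library, unnamed miRNA 12 stood at between 6.17% and 39.6% of its level, so it was no constant fraction of it. Unnamed miRNAs 12, 13 and 30 were the other 3 miRNAs that edgeR called lower at week 14 than at week 10 over both diets, with log2 fold changes of -0.67 (SE 0.163), -0.92 (SE 0.222) and -0.76 (SE 0.175) and an adjusted p of 0.0316 each. All 3 are among the 8 that passed the correlation test (unnamed miRNA 30 with r = 0.68), and both results come from the same libraries.

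**Figure D4:**
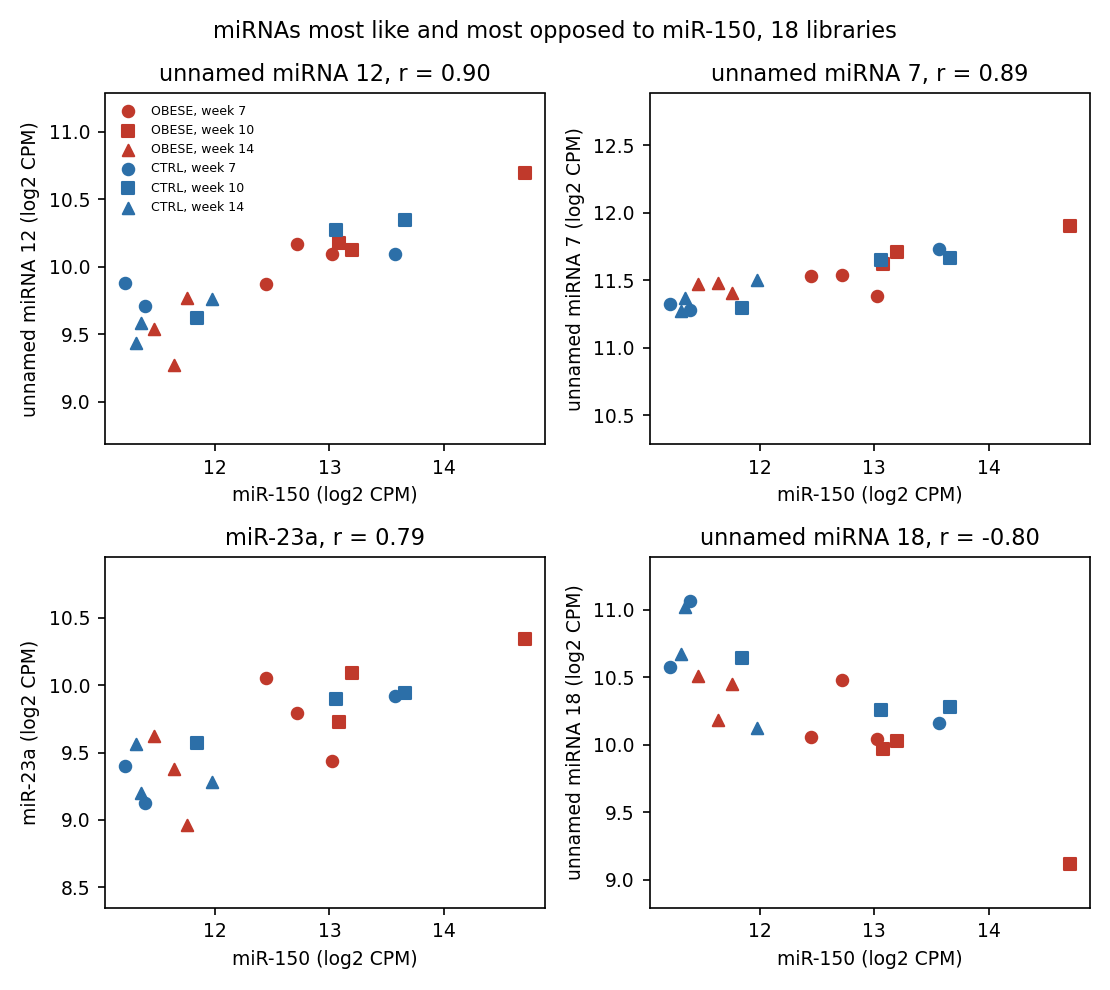
Log2 CPM of 4 miRNAs against that of miR-150 in 18 libraries, coloured by diet and shaped by week, with all vertical axes spanning the same number of log2 units. Unnamed miRNA 12 (r = 0.90), unnamed miRNA 7 (0.89) and miR-23a (0.79) rise with miR-150, and unnamed miRNA 18 (-0.80) falls.

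Unnamed miRNAs 18, 30 and 64 are named after their values were seen. Unnamed miRNA 18 was the 1 miRNA that passed in the opposite direction, at r = -0.80 (rho = -0.77, adjusted permutation p = 0.00334). Its mean at week 7 was 1178 ± 211 CPM with the OBESE diet and 1602 ± 507 CPM with the CTRL diet. At week 10 its mean was 864 ± 272 CPM with the OBESE diet and 1352 ± 213 CPM with the CTRL diet, and at week 14 it was 1336 ± 157 and 1604 ± 480 CPM (SD, n = 3 each). Its lowest library, at 551 CPM, was OBESE week 10 replicate 2, the library with the most miR-150, and r was -0.69 without that library and -0.73 without the 2 farthest. Unnamed miRNA 64 had r = 0.82 at a low level, 18.6 to 102 CPM.

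**Figure D5:**
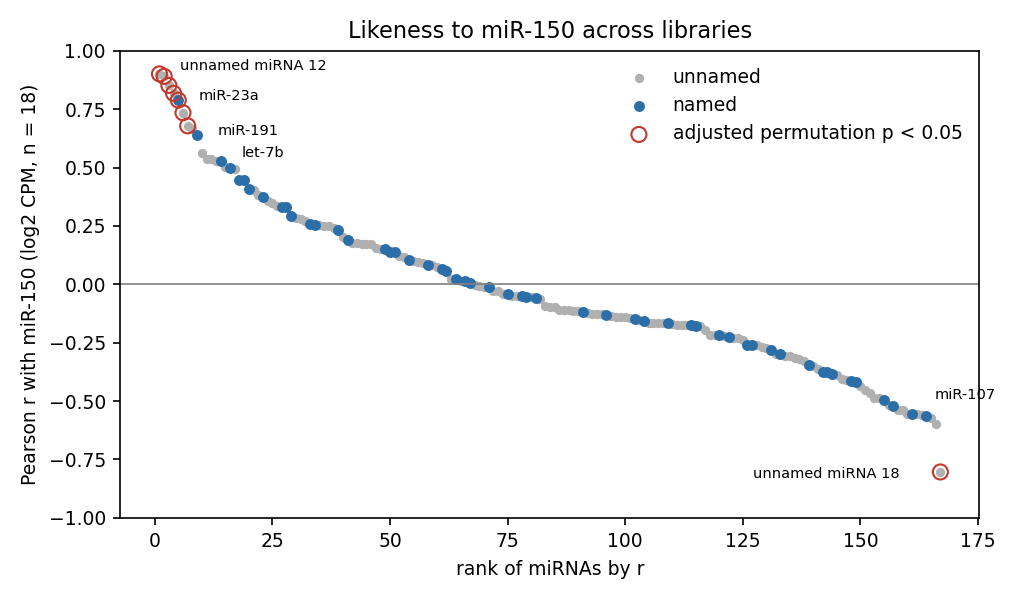
Pearson r with miR-150 for 167 miRNAs in order (log2 CPM, n = 18), with named miRNAs in blue and the 8 that passed an adjusted permutation p of 0.05 circled. miR-23a is the 1 named miRNA circled, and unnamed miRNA 18 stands alone at the negative end.

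miRNAs listed for other blood cells and tissues were set beside miR-150 by their r, read against the median of -0.10 over all 167. In the red blood cell list, 3 of 8 miRNAs were counted, and all 3 had a negative r, miR-16b of -0.28, miR-25 of -0.12 and miR-106b of -0.52. In the platelet list, 2 of the 5 counted were positive and 3 negative, from miR-191 at 0.64 to miR-107 at -0.56. In the myeloid list, miR-23a passed while miR-27a had 0.06 and miR-21, an abundant miRNA of many cells, had -0.04. In the list for vessel wall and fibroblasts, 3 of 4 were positive, from miR-10b at 0.45 to miR-143 at -0.50. miR-194 (0.25) and miR-148a (-0.05), both high in liver, and miR-133 of muscle (0.01) completed the counted members, and of the 19 members compared, miR-29a included, miR-23a was the 1 that passed. With libraries scaled by their totals alone, 4 of the negative values turned positive, those of miR-21 (0.26), miR-25 (0.04), miR-199a-3p (0.18) and miR-148a (0.10). Several defining miRNAs of these cells (miR-451 and miR-486 of red cells, miR-223 and miR-142 of myeloid cells, miR-122 of liver) were not analysed here.

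Measures of the libraries themselves were set beside miR-150 in the same way, as 6 correlations over 18 libraries. The share of the 5 most abundant miRNAs had r = -0.47 (permutation p = 0.0449, adjusted p = 0.257), which was -0.32 without the 2 libraries farthest from its median. Its rho was -0.40 (unadjusted permutation p = 0.0994). The mean level of the red blood cell list had r = -0.41 (permutation p = 0.0855, adjusted p = 0.257), which was -0.22 without the 2 libraries farthest from its median. Its rho was -0.50 (unadjusted permutation p = 0.0372). The total count had 0.26, the TMM factor 0.25, the share of miR-16b -0.27 and the number of miRNAs with at least 10 counts 0.19, with adjusted permutation p-values from 0.376 to 0.454.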

How the data were processed

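Small RNA libraries were made from 200 µL of plasma with a QIAseq kit carrying molecular identifiers, per the labels' protocols. The deposited values are raw whole-number counts per miRNA feature, made by the authors. Tools listed, per the submitters' processing notes, were DESeq2 1.42, Bowtie 1.3.1 and cutadapt 4.9, with no roles. In the sources used here, neither the genome build nor the miRNA annotation is given. The series table and the single files differed in 0 values.

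Of 364 features, 107 carry miRNA names and 257 only a running number. edgeR 4.0.16 (R 4.3.3) kept 168 with its filter at a minimum count of 10 and a minimum total of 15, and the 196 left out hold 0.0311% to 0.0614% of the counts of a library. Counts were TMM-scaled and fitted with a quasi-likelihood model of 6 diet-by-week groups over 18 libraries, with Benjamini-Hochberg adjustment over the 168 and a threshold of 0.05. Intervals are 95% intervals of the fit. Correlations used log2 CPM with a prior count of 2 and 100000 permutations (NumPy 2.4.6, with ranks from SciPy 1.17.1). Exact permutation tests were run on log2 CPM of miR-150. The fit was tested on simulated counts. DESeq2 1.42.0 and limma-voom 3.58.1 were alternatives, beside other scalings, no filter, another prior count, smaller fits, a replicate block and fits without single libraries. DESeq2 was run on all 364 features, with its own adjustment over them, and limma-voom on the 168. Same-numbered libraries of a diet were checked for pairing by the correlation, over all 168 miRNAs, of their deviations from group means. All 6 pairs of weeks 10 and 14 were over 0.1, as were 16 of the 18 pairs of all weeks (-0.02 to 0.69, median 0.35). Of 36 pairs with other numbers in the same diet, 2 were over 0.1 (median -0.17). Deviations in a group sum to 0, so these tend to be negative where the others are positive. Of 9 same-numbered pairs across diets in the same week, 4 were over 0.1 (median 0.06). In the same diet, 17 of 18 libraries correlated best with their own number. The labels do not say what a number marks, so the pairing comes from the values, and the block is given where it changes a call.

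The miRNAs named are miR-150, the 5 named with the highest and the 3 with the lowest r, the 3 unnamed with the highest r, the 2 named neighbours on each side in level, and the extremes of each cell list. Others are said to be named after their values were seen. miR-150, the lists and the tests were chosen with earlier results of these data known.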

Additional observations from a re-analysis of the deposited data

Results flagged for a closer look

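OBESE week 10 replicate 2, at 26790 CPM of miR-150, stood apart from the other 8 OBESE libraries. The gap to the next library was 0.726 of the whole range of the 9, above the critical value of 0.493 of Dixon's test for 9 samples. On the log2 scale the ratio was 0.466, which is not past it. The 9 libraries span 3 weeks. Among the 6 libraries of week 10 alone the ratio was 0.598, and 0.365 on the log2 scale, both under the critical value of 0.625. The critical values are set so that about 1 in 20 groups of normally spread values is singled out by chance. CPM values over 3 weeks need not follow that rate. The test was also run on the CTRL libraries and on those of weeks 7 and 14, where no library was flagged on either scale.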

How the results depend on the processing

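The diet difference averaged over weeks stayed positive and without a call under all 28 alternatives (log2 fold change 0.12 to 0.81). At week 14 it was near 0 and turned negative with no filter (-0.00512), without the 2 libraries of lowest TMM factor (-0.0614) and with only the groups compared in the fit (-0.0534). Without those 2 libraries the week 7 difference was -0.13 and the week 14 interaction 0.0668. The week 14 against week 10 difference over both diets lost its call with library totals alone (-1.88, edgeR adjusted p = 0.0587) and without those 2 libraries (-1.80, 0.0565). In OBESE alone it was called with DESeq2 (-2.27, adjusted p = 0.0118), with no filter (-2.48, 0.000844) and with only its groups in the fit (-2.23, 0.0472). It was also called with a replicate block shared by both diets and with limma's estimated correlation, both given next. The cause of these changes was not tested. Library totals alone gave 14 miRNAs correlated with miR-150, against 8, and moved the median log2 fold change of all 168 for the mean diet difference to 0.16.

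With a replicate block shared by both diets the step to week 14 was -2.16 in OBESE (edgeR adjusted p = 0.0391) and -1.75 over both diets (0.0149). With limma's estimated correlation by diet and number it was -2.05 in OBESE (limma-voom adjusted p = 0.0391). With a separate block for each number within a diet, the OBESE step was not called, as given above. These fits changed no other call of miR-150.

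Leaving out 1 library at a time gave log2 fold changes between OBESE and CTRL of 0.12 to 0.77 averaged over weeks, -0.15 to 1.45 at week 7, 0.14 to 1.32 at week 10 and -0.13 to 0.25 at week 14. Week 10 against week 7 gave 0.48 to 1.63 in OBESE and 0.06 to 1.74 in CTRL, and week 14 against week 7 gave -1.20 to -0.96 and -1.23 to 0.28. The interactions ran from -0.61 to 1.12 at week 10 and -1.42 to 0.16 at week 14. Week 14 against week 10 ran from -2.66 to -1.55 in OBESE, called once (without CTRL week 7 replicate 3, edgeR adjusted p = 0.0137), from -1.76 to -0.94 in CTRL and from -2.06 to -1.48 over both diets. The exact permutation differences were 0.34 to 0.77 between diets and -1.93 to -1.41 between weeks, and 7 to 11 miRNAs correlated with miR-150. The call of miR-23a held in each of these 18 fits, and miR-191 passed in 3.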
